A study of Mus musculus with 2 samples.

Results

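The 6 genes described here, Tnfrsf4, Tnfrsf9, Tnfrsf18, Icos, Cd28 and Cd27, encode T cell costimulatory receptors. They were chosen by symbol and are 6 of the 32285 genes in the files. Single-cell RNA-seq was performed on CD45+ immune cells of subcutaneous MC38 tumors, a mouse colon cancer line grown in both flanks of C57BL/6 mice, males aged 6 to 8 weeks at purchase. In both groups the right tumor was treated by microwave ablation (MWA) at about 300 mm3, and cells came from the left, non-ablated tumor on day 8. The MWA library had no anti-TIGIT antibody (the methods name an isotype antibody as its control), and the MWA plus TIGIT library came from mice given 3 injections of a blocking antibody to the inhibitory receptor TIGIT, the first of them 1 day after MWA and the others at intervals of 3 days. Each group is 1 library and the number of mice behind it is not given in the sources used here. No test between the groups is therefore possible, and every interval below is a 95% interval that covers counting error only.

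A T cell needs a second signal beside its antigen receptor, and costimulatory receptors deliver it. CD28 and ICOS belong to the immunoglobulin superfamily: CD28 is present on resting T cells and binds CD80 and CD86, whereas ICOS appears after activation and binds ICOSL. OX40 (Tnfrsf4), 4-1BB (Tnfrsf9), GITR (Tnfrsf18) and CD27 belong to the tumor necrosis factor receptor superfamily, recruit TRAF adaptors and activate NF-κB. OX40, 4-1BB and GITR are induced by activation and are also carried by regulatory T cells, and agonist antibodies to several of these receptors have been studied in tumor models.

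The libraries held 10217 (MWA) and 10190 (MWA plus TIGIT) barcodes with 66152465 and 78751205 unique molecular identifiers (UMIs, each standing for 1 captured transcript). After removal of low-quality barcodes and likely doublets, 9231 and 9127 cells remained, with medians of 5283 and 6276 UMIs per cell. The libraries shared 37 barcode sequences. Clusters were named from marker lists, and the 6 receptors were left out of the genes used for clustering, so that they did not shape the classes. Names ending in "like" rest on those markers. The 12 T and NK classes held 3996 and 3773 cells. Foxp3, the transcription factor of regulatory T cells, stood at 480 and 542 CPM (counts per 1e6 UMIs of the class) in Treg-like cells and at 3.72 and 6.20 CPM in CD4-like cells. Cd8b1 was at 662 and 812 CPM over the CD8 classes, and Ncr1, a defining gene of NK cells, at 265 and 237 CPM in NK-like cells. One T cell cluster, led by Klra1, kept no cell type name, and a further CD8 group is called other CD8 for the same reason. The Klra1-led cluster had gamma-delta T markers among its leading genes, but a different marker list scored best in it. The summed level of 8 macrophage markers was 730 and 742 CPM in all T and NK cells against 29998 and 35081 CPM in cells like tumor-associated macrophages (TAM-like).

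The genes fall into 2 pairs of close neighbours and 2 genes apart, with coordinates on GRCm38 from GENCODE. Tnfrsf4 (chr4:156013843-156016612) and Tnfrsf18 (chr4:156026164-156028895) lie on the plus strand 9551 bases apart. Tnfrsf9 (chr4:150914562-150946102) is on the same chromosome and strand, and is overlapped by Camta1 on the other strand. Cd28 (chr1:60716800-60773359) and Icos (chr1:60977927-61000320) lie on the plus strand on either side of Ctla4, which encodes an inhibitory relative of CD28. Cd27 (chr6:125232622-125237010) is on the minus strand and is overlapped by Vamp1 on the plus strand. Tnfrsf18 is overlapped on the other strand by the antisense gene Gm16008.

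RefSeq start windows on GRCm38.p6 (250 bases before to 50 after a start) were at hand for 4 of the 6 genes: Tnfrsf4, Tnfrsf9, Tnfrsf18 and Cd27. They are shown because Tnfrsf4 and Tnfrsf18 had like patterns of expression and Cd27 did not. Capitals mark matches, on either strand, to the NF-κB letters (GGG, any 5 bases, CC), the AP-1 letters TGANTCA, the NFAT letters GGAAA or the ETS letters CCGGAA, the last 2 of which can overlap in CCGGAAA. Only bases outside annotated exons are printed in full: 84 bases before Tnfrsf4 (chr4:156013611-156013694, plus strand), 92 bases of the Tnfrsf18 window (chr4:156026072-156026163, plus strand) and 250 bases before Cd27 (chr6:125237028-125237277, minus strand). Shorter stretches show the matches nearest the second Tnfrsf9 start (chr4:150927947-150927976 and chr4:150927977-150927998) and the Tnfrsf18 start (chr4:156026247-156026276).
Tnfrsf4: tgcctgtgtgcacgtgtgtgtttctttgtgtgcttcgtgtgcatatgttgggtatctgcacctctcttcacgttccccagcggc
Tnfrsf18: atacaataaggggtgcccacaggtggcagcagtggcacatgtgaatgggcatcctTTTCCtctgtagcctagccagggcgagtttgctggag
Tnfrsf18, near the start: ctcagatgtctgCCGGAAActggaggtgga
Tnfrsf9, NF-κB letters: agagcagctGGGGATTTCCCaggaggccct
Tnfrsf9, AP-1 letters: gctcagtTGAGTCAcaggtcct
Cd27: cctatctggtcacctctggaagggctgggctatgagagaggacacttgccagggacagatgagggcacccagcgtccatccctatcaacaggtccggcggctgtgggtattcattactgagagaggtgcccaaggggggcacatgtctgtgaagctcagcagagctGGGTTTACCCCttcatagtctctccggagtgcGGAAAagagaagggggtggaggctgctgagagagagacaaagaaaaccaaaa

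Among these windows, that of the second Tnfrsf9 start alone held both NF-κB and AP-1 letters, 43 and 15 bases before the start. The Cd27 window held the NF-κB letters 84 bases before its start, and the NFAT letters were in windows of all 4 genes. Of 32851 such windows, 50.8% held the NF-κB letters, 7.81% the AP-1 letters, 61.3% the NFAT letters and 14.9% the ETS letters. The RUNX letters TGTGGT were in 16.8% of windows and, among the 4 genes, in that of the second Tnfrsf9 start alone. The Tnfrsf4 and Tnfrsf18 windows held neither the NF-κB nor the AP-1 letters, which says nothing on sites elsewhere.

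Regulatory T cells carried the highest level of 5 of the 6 receptors in both libraries, with Cd28 as the exception. Tnfrsf4 stood at 2013 CPM (interval 1946 to 2081) in Treg-like cells of the MWA library and at 2167 CPM (2099 to 2237) in those of the MWA plus TIGIT library, from 3462 and 3838 UMIs. That was 6.66 (6.20 to 7.16) and 7.70 (7.13 to 8.31) times the level in CD4-like cells. Against all CD8 cells together the ratio was 25.5 (23.6 to 27.7) and 31.3 (28.9 to 34.0). These ratios depended on how cells were taken. Cells with a Foxp3 UMI held 1861 and 1966 CPM. Cells with a Cd4 UMI and no Foxp3, Cd8a or Cd8b1 held 436 CPM in each library, a smaller ratio. Of that CD4 gate 11.8% and 10.3% of cells were Treg-like by cluster. Cells with a Cd8a or Cd8b1 UMI and no Cd4 or Foxp3 held 51.5 and 33.8 CPM, a larger ratio. In both libraries the 3 highest Tnfrsf4 levels were in Treg-like cells, in cycling cells with Foxp3 and in CD4-like cells, in that order.

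**Figure D1:**
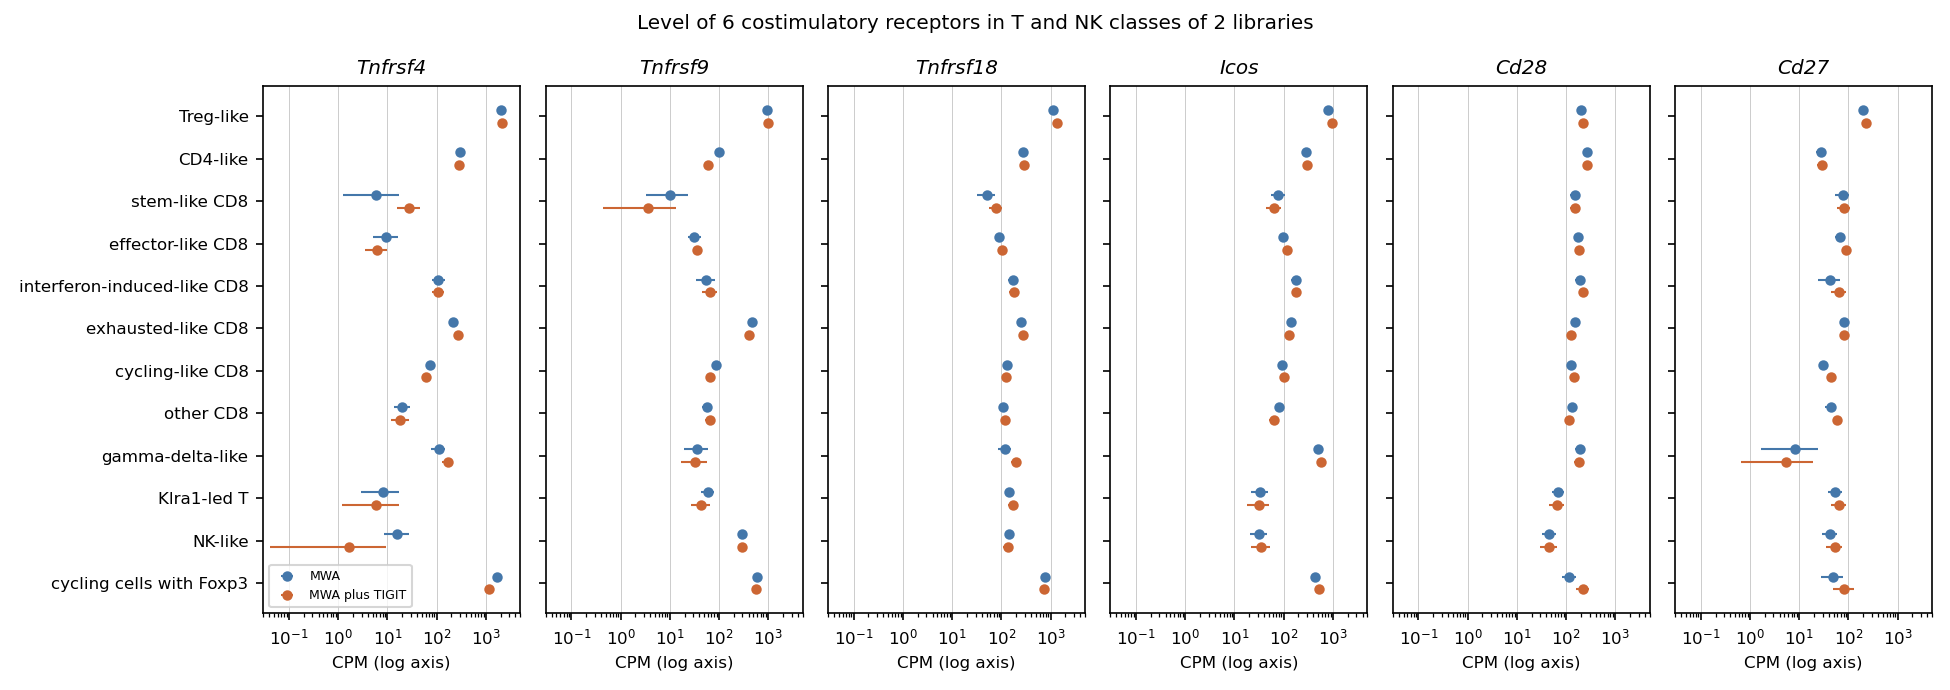
Level of each receptor (x axis, CPM, log axis) in the 12 T and NK classes (y axis) of the MWA (blue) and MWA plus TIGIT (orange) libraries; points are class totals and bars 95% Poisson intervals of counting error. Treg-like cells are highest for every receptor but Cd28, whose levels span the narrowest range, and Tnfrsf4 ranges from 2167 down to 1.64 CPM.

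Outside the Foxp3 classes, Tnfrsf4 was spread over a wide range. CD4-like cells held 302 and 282 CPM and exhausted-like CD8 cells 213 and 271 CPM; these 2 classes were apart in the MWA library and overlapped in the MWA plus TIGIT library. Interferon-induced-like CD8 cells held 108 CPM in each library and cycling-like CD8 cells 73.2 and 61.0 CPM. Effector-like CD8 cells, with 9.39 and 6.12 CPM, were near the 3.22 and 1.94 CPM of TAM-like cells. Both were below the 128 and 83.0 CPM of neutrophil-like cells (28 and 24 UMIs). Stem-like CD8 cells gave 3 and 15 UMIs (6.00 and 27.7 CPM), NK-like cells 13 and 1 UMIs, and these totals were too small for a comparison by the rule used below.

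GITR, encoded by Tnfrsf18, followed OX40. Its level was 1106 CPM (1057 to 1157) and 1355 CPM (1301 to 1410) in Treg-like cells, 282 and 294 CPM in CD4-like cells and 246 and 271 CPM in exhausted-like CD8 cells. Unlike Tnfrsf4, it did not drop toward the TAM-like level of 2.45 and 2.06 CPM in any T or NK class: its lowest values, in stem-like CD8 cells, were 50.03 and 77.7 CPM. These were near the 36.6 and 69.2 CPM of neutrophil-like cells (8 and 20 UMIs), so they were not clear of every class without T cells. Between the exhausted-like and the stem-like CD8 cells stood NK-like, Klra1-led, gamma-delta-like and the other CD8 classes at 90.3 to 203 CPM, and most neighbours in that order overlapped.

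Tnfrsf9 divided the cytotoxic classes. Treg-like cells held 963 CPM (917 to 1010) and 1002 CPM (956 to 1050), and cycling cells with Foxp3 593 and 563 CPM. Exhausted-like CD8 cells came next with 464 CPM (433 to 498) and 416 CPM (382 to 452), followed by NK-like cells with 296 and 297 CPM; these 4 classes were apart from each other in both libraries. Exhausted-like cells exceeded effector-like CD8 cells 14.6-fold (10.8 to 20.3) and 11.4-fold (9.18 to 14.4), the latter holding 31.8 and 36.4 CPM. NK-like cells exceeded the same effector-like cells 9.32-fold (6.74 to 13.2) and 8.18-fold (6.34 to 10.6). In stem-like CD8 cells only 5 and 2 UMIs of Tnfrsf9 were counted.

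Exhausted-like CD8 cells were not uniform in these receptors. They came from 2 clusters, one led by the granzyme genes Gzmf and Gzmd with Havcr2 and one led by Ccl1, Csf2 and Penk. Tnfrsf4 stood at 110 and 116 CPM in the first and 443 and 531 CPM in the second, and Tnfrsf18 at 192 and 200 CPM against 368 and 390 CPM. For Tnfrsf9 the order was 521 against 336 CPM in the MWA library, while both clusters held about the same level, 416 and 415 CPM, in the MWA plus TIGIT library. The level of Tnfrsf4 in exhausted-like cells therefore depended on which cluster was counted. Cd4 stood at 22.7 and 48.6 CPM over both clusters, against 6.50 and 9.18 CPM in effector-like CD8 cells.

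The inducible receptor Icos had its second highest level in gamma-delta-like T cells, a small class of 118 and 108 cells led by Il17a and Trdv4. Treg-like cells held 796 CPM (754 to 839) and 971 CPM (925 to 1018), and gamma-delta-like cells 503 and 571 CPM. Gamma-delta-like cells exceeded CD4-like cells, at 283 and 301 CPM, by 1.78-fold (1.51 to 2.09) and 1.90-fold (1.63 to 2.21). They overlapped cycling cells with Foxp3 (425 and 529 CPM) in both libraries. The lowest Icos levels among T and NK classes were in Klra1-led T cells and NK-like cells, between 31.3 and 34.5 CPM. They were above the 1.65 and 0.969 CPM of TAM-like cells but below the 110 and 55.3 CPM of neutrophil-like cells (24 and 16 UMIs).

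Cd28 was the flattest of the 6 genes. CD4-like cells were highest with 264 CPM (247 to 283) and 262 CPM (243 to 281), and Treg-like cells had 205.2 and 224 CPM, which is 0.776 (0.683 to 0.879) and 0.857 (0.757 to 0.969) of the CD4-like level. Every CD8 class and gamma-delta-like cells lay between 113 and 226 CPM. Exhausted-like CD8 cells, at 149 and 124 CPM, held 0.873 (0.729 to 1.05) and 0.687 (0.572 to 0.823) of the effector-like level, so the interval lay below 1 in the MWA plus TIGIT library only; the difference between the libraries in this ratio was not tested. NK-like cells were lowest with 45.9 and 44.3 CPM.

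Cd27 was highest in Treg-like cells and low in CD4-like cells, with the CD8 classes between them. Treg-like cells held 196 CPM (176 to 218) and 225 CPM (204 to 249), which was 7.03 (5.55 to 8.97) and 7.79 (6.14 to 9.98) times the 27.9 and 28.9 CPM of CD4-like cells. By the same marker UMIs as for Tnfrsf4, Cd27 stood at 152 and 209 CPM in cells with Foxp3. It was at 39.5 and 46.15 CPM in CD4 cells taken so, a smaller ratio. Effector-like CD8 cells held 67.2 and 88.8 CPM, exhausted-like cells 80.2 and 81.9 CPM and stem-like cells 76.0 and 81.4 CPM, and neighbouring classes in that group overlapped. Cycling-like CD8 cells, with 31.2 CPM (25.6 to 37.7) and 44.3 CPM (37.6 to 51.7), overlapped CD4-like cells in the MWA library and were above them in the other. Interferon-induced-like CD8 cells, with 41.9 CPM (24.4 to 67.0) in the MWA library, overlapped CD4-like cells there too. Gamma-delta-like cells gave 3 and 2 UMIs of Cd27 in all.

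**Figure D2:**
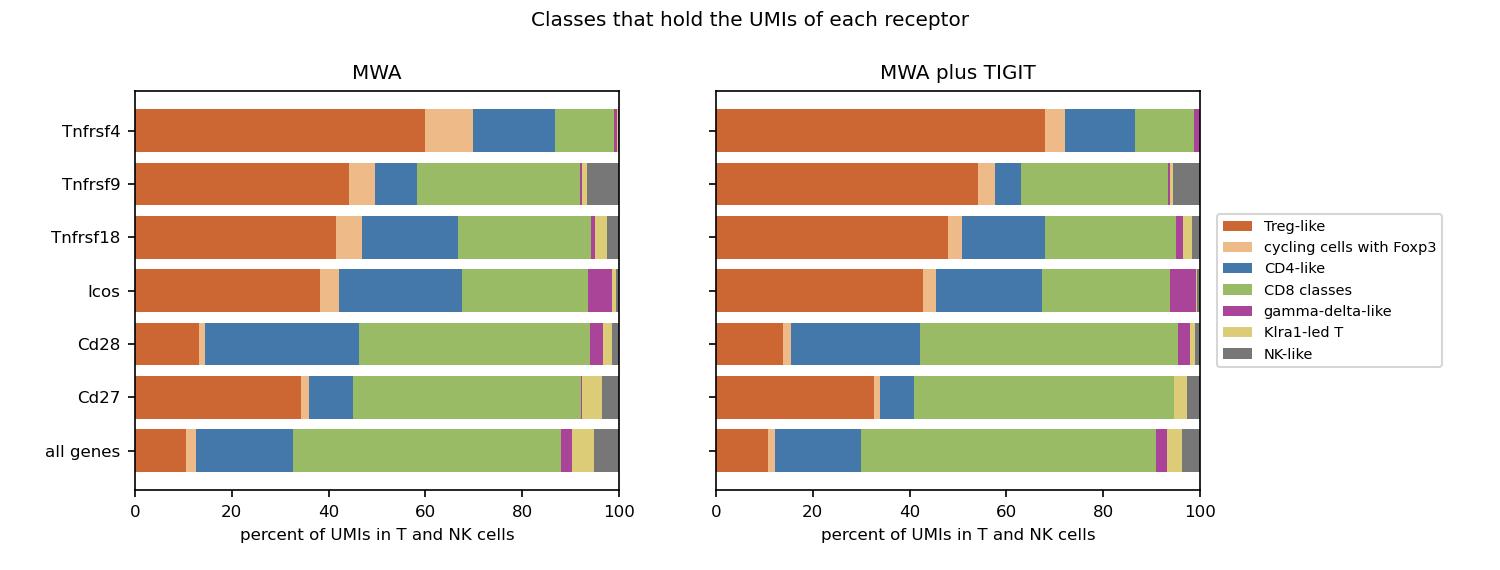
Share of each receptor's UMIs in T and NK cells (x axis, percent) that came from each class, with all genes together as the bottom bar, in the MWA (left) and MWA plus TIGIT (right) libraries. Treg-like cells supply 60.0% and 67.9% of Tnfrsf4 UMIs but 10.6% and 10.9% of all UMIs, whereas the Cd28 bars resemble the bar of all genes most.

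The classes that supply these transcripts followed from those levels and from class size. Treg-like cells were 10.6% and 10.9% of the UMIs of T and NK cells but held 60.0% and 67.9% of the Tnfrsf4 UMIs, 44.3% and 54.1% of Tnfrsf9, 41.5% and 47.9% of Tnfrsf18, 38.2% and 42.8% of Icos, and 34.3% and 32.6% of Cd27. For Cd28 the share was 13.1% and 14.0%. CD8 cells of every class together held 47.7% and 53.2% of Cd28 UMIs and 47.0% and 53.7% of Cd27 UMIs, against 12.3% and 12.2% of those of Tnfrsf4. A measurement of Tnfrsf4 over all T and NK cells was thus for the larger part one of Treg-like cells, and a measurement of Cd28 was not.

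Per cell, the receptors were counted after each cell was thinned at random to 1000 UMIs, which left out 18 and 9 Treg-like cells with fewer. Tnfrsf4 was detected in 75.7% (72.4 to 78.9) and 77.7% (74.1 to 81.1) of Treg-like cells, Tnfrsf18 in 63.1% and 71.7%, Icos in 50.4% and 58.6%, and Tnfrsf9 in 47.8% and 53.6%. In TAM-like cells, where levels of these genes were low, the shares of the 6 receptors after thinning were between 0.104% and 0.948%. The highest level there was that of Tnfrsf9, at 6.70 and 6.78 CPM. Median depths before thinning were 2190 and 2703 UMIs in Treg-like cells and 8586 and 10574 UMIs in TAM-like cells. Without thinning, Tnfrsf4 was detected in 92.0% and 92.9% of Treg-like cells and in 1.76% and 1.85% of TAM-like cells.

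Most Treg-like cells carried several of these receptors at once. At 1000 UMIs per cell, 59.3% (55.6 to 63.0) of them in the MWA library and 68.2% (64.2 to 71.9) in the MWA plus TIGIT library held 3 or more of the 6, and 3.30% and 1.37% held none. The 2 intervals do not overlap. At 2000 UMIs per cell the shares were 89.6% and 91.5%, in a smaller set of deeper cells, since those with fewer UMIs were left out. Each group is 1 library, and mice cannot be told apart from treatment. CD4-like cells with 3 or more were 7.76% and 6.87%, exhausted-like CD8 cells 6.19% and 7.14%, and effector-like CD8 cells 0.595% and 0.726%. Among 3836 thinned TAM-like cells of the MWA plus TIGIT library 0 had 3 or more, and 1 of 3799 did in the MWA library.

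**Figure D3:**
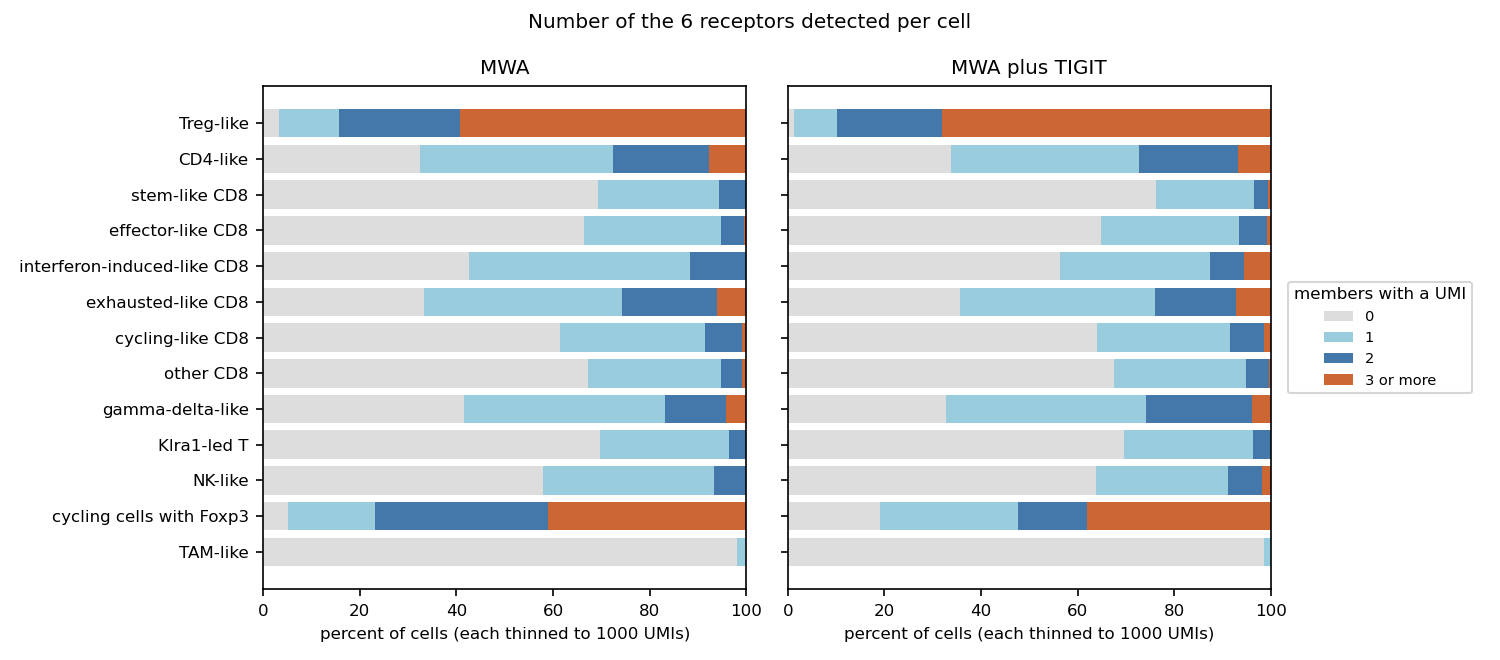
Percent of cells (x axis) of each class with UMIs of 0, 1, 2, or 3 or more of the 6 receptors after thinning to 1000 UMIs, for the MWA (left) and MWA plus TIGIT (right) libraries. TAM-like cells are included as a class with low levels of these genes. The part with 3 or more receptors is 59.3% and 68.2% in Treg-like cells and under 8% in each T and NK class without Foxp3.

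Within Treg-like cells, 4-1BB transcripts were detected more often in cells that also held OX40 transcripts. Among thinned Treg-like cells of the MWA library, Tnfrsf9 was detected in 51.2% (46.9 to 55.6) of cells with Tnfrsf4 and 37.3% (29.97 to 45.0) of cells without it. In the MWA plus TIGIT library these shares were 56.8% (52.1 to 61.4) and 42.3% (33.7 to 51.3). No such gap was seen for Icos, at 50.7% and 49.7% in the MWA library and 57.9% and 60.8% in the other. In CD4-like cells, Tnfrsf18 was detected in 44.9% (32.9 to 57.4) of cells with Tnfrsf9 and 21.3% (18.6 to 24.2) of those without in the MWA library, and in 42.9% (27.7 to 59.0) and 23.2% (20.2 to 26.4) in the MWA plus TIGIT library. Cells of 1 library are not replicates, and these shares describe the 2 libraries.

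Over the 12 classes of both libraries, 24 points that share libraries and depth, the receptors' log2(CPM + 10) patterns were described by Pearson's r. Tnfrsf4 was most like Tnfrsf18 (r = 0.904) and Icos (0.878), Tnfrsf9 most like Tnfrsf18 (0.830), and Cd28 most like Icos (0.757). Tnfrsf9 and Cd28 gave r = -0.068, and Cd27 was not above 0.452 with any of the others. Among the 4051 genes compared, the 3 most like Tnfrsf4 were Ctla4 (0.958), Hif1a (0.949) and Sdf4 (0.939). Those most like Tnfrsf18 were Sdf4 (0.9498), C1qtnf12 (0.935) and Il1rl1 (0.933), the last encoding the IL-33 receptor. Hivep3 (0.916), Raph1 (0.914) and Pdcd1lg2 (0.909) headed the list for Tnfrsf9, and Hif1a (0.956), Aebp2 (0.943) and Tmem154 (0.943) that for Icos. Lat (0.893), Bcl11b (0.878) and Cd5 (0.871), genes of T cell receptor signalling and T cell identity, were most like Cd28. Gpr174 (0.830), Prkch (0.799) and Mgst2 (0.768) were most like Cd27. Most of these lists depended on the measure. For Cd28, only Lat stayed among the 3 with a pseudocount of 1, and only Bcl11b by Spearman's rho. By Spearman's rho, Ctla4 and Hif1a stayed for Tnfrsf4. Only Pdcd1lg2 stayed for Tnfrsf9, Il1rl1 for Tnfrsf18, Hif1a for Icos and Gpr174 for Cd27. With a pseudocount of 1, all 3 stayed for Cd27.

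A positional feature was seen that the choice of genes had not used. Sdf4 (chr4:155992872-156013610) ends 232 bases before Tnfrsf4 on the same strand, and C1qtnf12 (chr4:155962318-155966629) lies 47213 bases before it; both were among the 3 genes named for Tnfrsf18 and Sdf4 also for Tnfrsf4. These places depended on the measure. With a pseudocount of 1, Sdf4 stayed among the 3 for Tnfrsf18 alone and C1qtnf12 for neither, and by Spearman's rho neither gene was among the 3 for Tnfrsf4 or Tnfrsf18. Sdf4 stood at 871 and 1011 CPM in Treg-like cells, 214 and 238 CPM in CD4-like cells and 317 and 388 CPM in exhausted-like CD8 cells. C1qtnf12 stood at 70.3 and 80.8 CPM, 25.1 and 18.9 CPM, and 20.9 and 26.6 CPM in the same classes. Whether reads of one gene of the stretch were counted for a neighbour was not tested.

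The second question was how these receptors differ between the libraries with and without TIGIT blockade. A gene was called when its CPM differed by 1.5-fold or more and the interval of the ratio excluded 1, among genes with at least 20 UMIs in both libraries together. Of 72 pairs of a receptor and a T or NK class, 3 were called higher and 1 lower in the MWA plus TIGIT library, 63 were not called and 5 had too few UMIs. The share of all genes called, in either direction, was 3.63% in all T and NK cells together and 4.46% in all CD8 cells together. By class it was 4.67% in Treg-like, 4.88% in CD4-like, 5.41% in gamma-delta-like, 4.77% in Klra1-led, 5.08% in NK-like cells and 7.44% in cycling cells with Foxp3. Among CD8 cells it was 4.91% in stem-like, 5.56% in effector-like, 5.96% in interferon-induced-like, 6.68% in exhausted-like, 7.01% in cycling-like and 5.91% in other CD8 cells. The receptors' 4 of 72 is within that range and is no result about them as a group. The median log2 ratio of all genes was itself above 0, at 0.12 in all T and NK cells, 0.14 in all CD8 cells and 0.08 in Treg-like cells, and edgeR's TMM scaling removed it, so a log2 ratio of a receptor is to be read against that median.

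**Figure D4:**
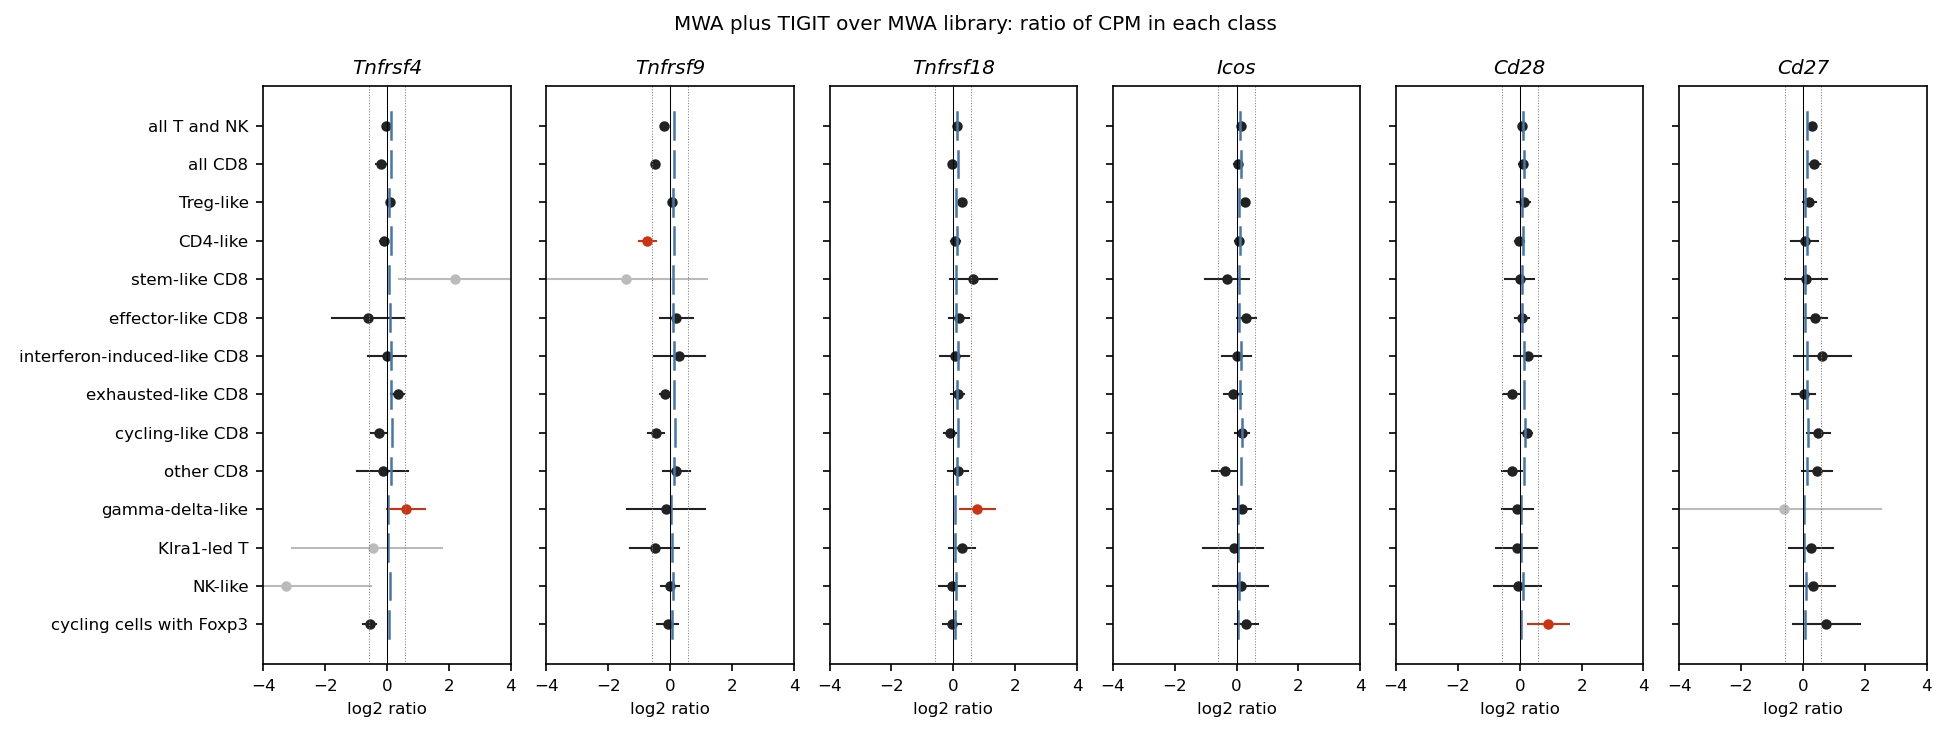
Log2 ratio of CPM in the MWA plus TIGIT library over the MWA library (x axis) for each receptor and class (y axis), with 95% intervals of counting error cut at -4 and 4; blue ticks are the median of all genes of the class and dotted lines mark 1.5-fold. Red points are past 1.5-fold with an interval that excludes 1 (4 of 72 in the 12 classes), and grey points have under 20 UMIs.

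In all T and NK cells together none of the 6 receptors was called, where 3.63% of all genes were. Cd27 went from 60.6 to 75.1 CPM (982 and 1225 UMIs) at a log2 ratio of 0.31 (0.19 to 0.43). Tnfrsf9 went from 231 to 201 CPM (3740 and 3281 UMIs) at a log2 ratio of -0.20 (-0.27 to -0.13). Icos and Tnfrsf18 differed by 0.15 and 0.12 on the log2 scale, near the median of all genes, and under TMM scaling these values were 0.04 and -0.00. Cd28 gave 0.07 and turned to -0.05 under TMM, and Tnfrsf4 gave -0.04 and -0.16.

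In Treg-like cells the value of every receptor was higher in the MWA plus TIGIT library, by less than 1.5-fold, and 0 of 6 were called where 4.67% of all genes were. Tnfrsf18 went from 1106 to 1355 CPM, a log2 ratio of 0.29 (0.21 to 0.38), and Icos from 796 to 971 CPM, also 0.29 (0.18 to 0.39); both intervals lay above the class median of 0.08. For Tnfrsf4 (0.11, 0.04 to 0.17), Tnfrsf9 (0.06, -0.04 to 0.16), Cd28 (0.13, -0.08 to 0.34) and Cd27 (0.20, -0.01 to 0.42) the intervals held that median. The 8 Treg markers summed to 3280 and 3307 CPM in these cells, but did not move alike. Foxp3 (480 and 542 CPM), Ikzf2 (1346 and 1457 CPM), Izumo1r (485 and 572 CPM) and Ikzf4 (112 and 135 CPM) had higher values in the MWA plus TIGIT library, while Areg (718 and 483 CPM), Itgb8 (103 and 91.5 CPM) and Ccr8 (36.04 and 22.0 CPM) had lower ones. Their part in the receptors' values was not tested.

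The lower call was Tnfrsf9 in CD4-like cells, where 1.06% of all genes were called lower. It went from 99.7 CPM (89.1 to 111) to 59.6 CPM (51.0 to 69.1) on 322 and 173 UMIs, and its log2 ratio was -0.74 (-1.02 to -0.47). Both CD4-like clusters had it, at 92.1 and 52.0 CPM in one and 107 and 68.5 CPM in the other. The thinned share of CD4-like cells with Tnfrsf9 was 7.44% (5.83 to 9.32) and 5.45% (3.95 to 7.29), whose intervals overlap. When CD4 cells were instead taken by a Cd4 UMI without Foxp3, Cd8a and Cd8b1, the levels were 179 and 159 CPM and the log2 ratio was -0.17 (-0.38 to 0.03), so the call was lost. Of the cells in that gate 11.8% and 10.3% were Treg-like by cluster, and 61.4% and 58.3% were CD4-like. The 8 Treg markers summed to 76.2 and 118 CPM in CD4-like cells, with Izumo1r at 19.5 and 40.3 CPM and Itgb8 at 0 in both libraries, and their part in the result was not tested. In CD4-like cells the other 5 receptors gave log2 ratios between -0.10 and 0.09.

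Gamma-delta-like cells had 2 of the higher calls, where 3.42% of all genes were called higher. Tnfrsf18 went from 118 to 203 CPM (43 and 75 UMIs) at a log2 ratio of 0.78 (0.22 to 1.35), and Tnfrsf4 from 110 to 168 CPM (40 and 62 UMIs), a ratio of 0.61 (0.01 to 1.22). The Tnfrsf4 call was lost with TMM scaling (0.54), without integration (0.58), in cells of at most 5000 UMIs (0.28) and after thinning (0.45); that of Tnfrsf18 was lost after thinning alone, at 0.85 (-0.27 to 2.02). The summed Treg marker list was at 157 and 262 CPM in this class, most of it from Ikzf2 and Areg, with Areg at 66.02 and 146 CPM and Foxp3 and Gpr83 at 0 in both libraries. Its part in the result was not tested. Icos, already high in these cells, gave 0.18 (-0.11 to 0.48).

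Cd28 in cycling cells with Foxp3 was the remaining call, where 4.55% of all genes were called higher. It rested on 38 and 45 UMIs from 39 and 21 cells (114 and 216 CPM), a log2 ratio of 0.92 (0.26 to 1.58). After thinning the log2 ratio was 0.09 and the call was lost, and at resolution 0.5 or without integration this class did not form. Tnfrsf4 in the same class went from 1714 to 1159 CPM (569 and 241 UMIs) at a log2 ratio of -0.56 (-0.79 to -0.34), short of the 1.5-fold limit and opposite in sign to the 0.11 of Treg-like cells; the difference between these classes was not tested.

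Among CD8 cells, the values of Tnfrsf9 and Tnfrsf4 depended on the class makeup used, and those of the other 4 receptors less so. Over all CD8 cells, where 4.46% of all genes were called, Tnfrsf9 went from 140.4 to 100.6 CPM (log2 ratio -0.48, -0.60 to -0.36) and Tnfrsf4 from 78.8 to 69.2 CPM (-0.19, -0.34 to -0.03), neither past 1.5-fold. This depended on how CD8 cells were taken. Cells with a Cd8a or Cd8b1 UMI and no Cd4 or Foxp3 UMI held Tnfrsf9 at 156.1 and 103.7 CPM. Tnfrsf4 stood at 51.5 and 33.8 CPM by this gate, so both receptors were lower by more than 1.5-fold. Exhausted-like cells, which hold most of both per UMI, were 19.2% of CD8 UMIs in the MWA library and 13.3% in the MWA plus TIGIT library, and effector-like cells, which hold little, were 15.4% and 26.3%. With the MWA makeup applied to both libraries, the log2 ratio of Tnfrsf9 was -0.18 and that of Tnfrsf4 turned to 0.12. That of Cd27 was 0.32, against 0.37 (0.19 to 0.54) with each library's own makeup, and those of Tnfrsf18, Icos and Cd28 were 0.07, 0.02 and 0.03, against -0.03, 0.05 and 0.09. Within exhausted-like cells Tnfrsf9 gave -0.16 (-0.32 to -0.00) and Tnfrsf4 0.35 (0.13 to 0.56), and within effector-like cells Tnfrsf9 gave 0.19 and Cd27 0.40 (0.05 to 0.77). The exhausted-like values pool the 2 clusters described above, in proportions that differed between the libraries: the first held 192 of 293 and 114 of 196 cells. Tnfrsf9 was lower in the MWA plus TIGIT library in the first (521 and 416 CPM) and higher in the second (336 and 415 CPM), and Tnfrsf4 was at 110.0 and 116 CPM and at 443 and 531 CPM.

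Cd27 stood somewhat higher in each of the 6 CD8 classes of the MWA plus TIGIT library, with log2 ratios from 0.03 in exhausted-like to 0.61 in interferon-induced-like cells. None of these was called, and in the same classes the median of all genes was between 0.08 and 0.16. The exhausted-like value lay below its class median of 0.13, and the stem-like value of 0.10 was near its class median of 0.08. The intervals excluded a ratio of 1 in effector-like cells (93 and 232 UMIs) and in cycling-like cells (107 and 159 UMIs, 31.2 and 44.3 CPM, log2 ratio 0.50, 0.14 to 0.87). Cd28 gave between -0.26 and 0.25 in the same classes.

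Other genes of the pathway were counted by the same rule, list by list. In Treg-like cells, where 4.67% of all genes were called, 0 of the 6 other costimulatory receptors with enough UMIs were called, 0 of 7 inhibitory counterparts, 0 of 18 signalling adaptors and 0 of 15 NF-κB and survival targets. Their median log2 ratios were 0.12, 0.03, 0.05 and -0.18, against 0.08 for all genes of the class. In all CD8 cells, where 4.46% were called, the single call was Crtam, a costimulatory receptor of the immunoglobulin superfamily, which went from 13.02 to 22.1 CPM (117 and 220 UMIs) at a log2 ratio of 0.76 (0.43 to 1.10). In exhausted-like CD8 cells, where 6.68% were called, Crtam went from 37 to 57 UMIs (1.01, 0.39 to 1.65) and Il2, the growth factor that CD28 signalling induces, from 5 to 21 UMIs (2.46, 1.01 to 4.22). Both values pool the exhausted-like clusters described above, whose proportions differed between the libraries. The part of those proportions in the Crtam and Il2 values was not tested. Signalling adaptors were called in both directions in other classes. Higher were 3 of 18 in cycling-like CD8 cells (6.06% of all genes higher) and 2 of 15 in interferon-induced-like CD8 cells (5.12%). In CD4-like cells 2 of 18 were higher (3.82%), namely Traf2 and Vav1. Klra1-led T, stem-like CD8, DC-like cells and cycling cells with Foxp3 each had 1 adaptor higher (3.08% to 7.81% of all genes). Lower were 2 of 18 in TAM-like (1.5% of all genes lower), 1 of 9 in neutrophil-like (4.42%) and 1 of 16 in Klra1-led T cells (1.69%). Of the NF-κB and survival targets, 3 of 11 were called higher in DC-like cells (7.81% of all genes higher). In B-like cells 3 of 7 were called lower, where 7.47% of all genes were called lower and 10.9% in either direction. Each of the remaining classes had at most 2 genes of a list called in 1 direction. Tigit itself stood at 38.9 and 48.0 CPM in Treg-like cells and 4.896 and 6.03 CPM in all CD8 cells, with intervals of the ratio that held 1.

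The ligands of these receptors were sought in the antigen-presenting classes. Mature DC-like cells (36 and 32 cells) held the highest levels of 5 of the 7 ligands in both libraries. For Cd80 alone their intervals were apart from those of every other antigen-presenting class in both libraries. Those of Cd86 overlapped type 1 DC-like cells in both libraries and DC-like cells in the MWA plus TIGIT library. Those of Icosl overlapped B-like and DC-like cells in both libraries and type 1 DC-like cells in the MWA plus TIGIT library. Those of Tnfsf4 overlapped B-like, DC-like and type 1 DC-like cells in both libraries. Cd70 overlapped type 1 DC-like and B-like cells in the MWA plus TIGIT library. Cd80 stood at 137 and 169 CPM, Cd86 at 227 and 248 CPM and Icosl at 109 and 99.9 CPM. Cd70, the ligand of CD27, gave 10 and 6 UMIs there (47.2 and 26.1 CPM), 0 and 1 UMIs in type 1 DC-like cells and 0 UMIs in the more numerous TAM-like and monocyte-like cells. Tnfsf4, the OX40 ligand, gave 5 and 3 UMIs in mature DC-like cells and 1 and 0 UMIs in TAM-like cells. Tnfsf18, the GITR ligand, gave 2 and 5 UMIs in TAM-like cells and 0 in the DC classes, where 3 counts would be 14.2 and 13.03 CPM in mature DC-like cells.

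**Figure D5:**
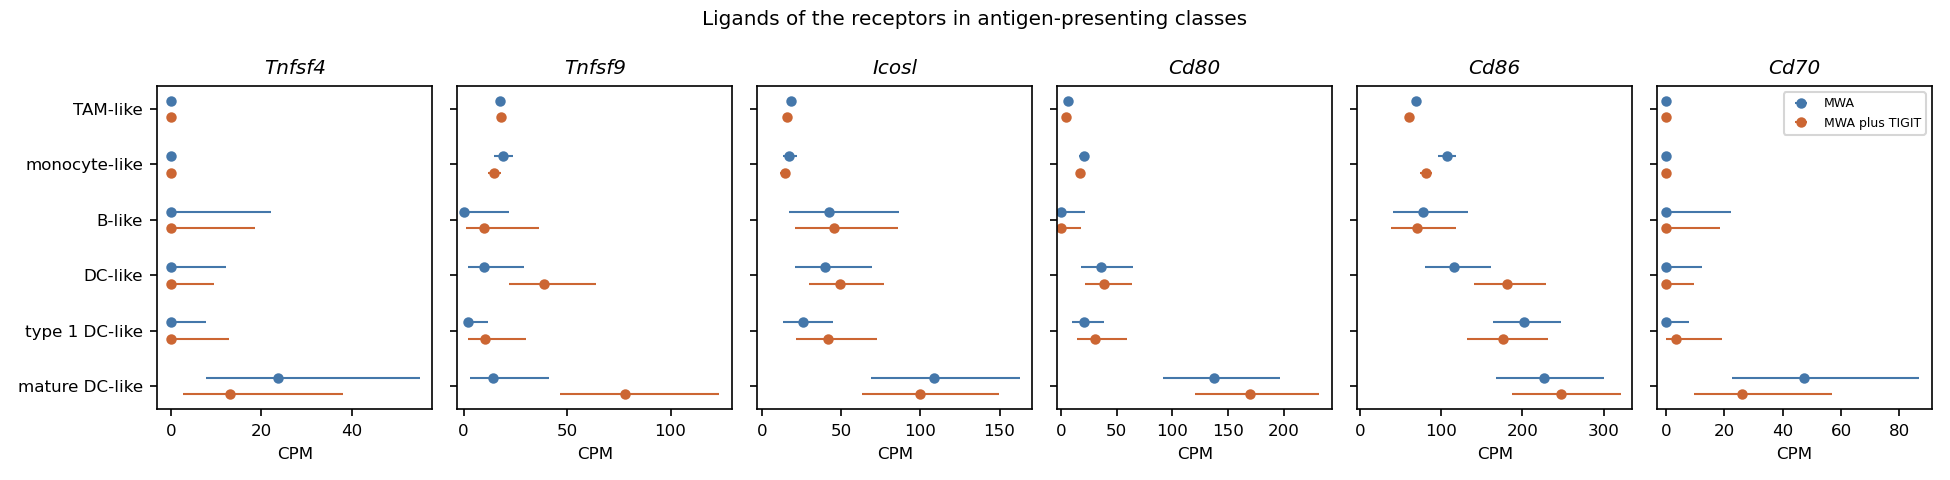
Level of 6 ligand genes (x axis, CPM, a linear axis for each gene) in the antigen-presenting classes (y axis) of the MWA (blue) and MWA plus TIGIT (orange) libraries, with 95% Poisson intervals of counting error. Mature DC-like cells have the highest values of Cd80, Cd86 and Icosl in both libraries, with intervals apart from every other class for Cd80 alone. Cd70 and Tnfsf4 are near 0 elsewhere.

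Between the libraries, 2 ligand values in the antigen-presenting classes were called. Tnfsf9, the 4-1BB ligand, went from 14.2 to 78.2 CPM (3 and 18 UMIs) in mature DC-like cells, a log2 ratio of 2.46 (0.69 to 4.87), where 5.25% of all genes were called higher. Cd86 in DC-like cells went from 35 to 70 UMIs (116 and 181 CPM), a ratio of 0.65 (0.04 to 1.27), where 7.81% were called higher. In the far larger TAM-like class Tnfsf9 was at 17.7 and 18.2 CPM (0.04, -0.11 to 0.20) and Cd86 at 69.3 and 61.0 CPM (-0.18, -0.27 to -0.10). Both DC values rest on 1 library a group and few UMIs.

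Mature DC-like cells also held transcripts of the receptors. Tnfrsf4 stood there at 203 and 78.2 CPM (43 and 18 UMIs), and Tnfrsf9 at 142 and 213 CPM. The level of Tnfrsf4 in the MWA library was 63.1 (43.3 to 90.6) times that of TAM-like cells. In the MWA plus TIGIT library the 2 levels were 78.2 and 1.94 CPM. Neutrophil-like cells held 128 and 83.0 CPM of Tnfrsf4 in the MWA and MWA plus TIGIT libraries. Cd3e was at 28.3 and 26.1 CPM in mature DC-like cells against 669 and 754 CPM in Treg-like cells, and Foxp3 at 0 and 26.1 CPM. The log2 ratio of Tnfrsf4 in this class was -1.38 (-2.26 to -0.55), where 3.39% of all genes were called lower, and after thinning to 1000 UMIs it turned to 0.13. Tnfrsf4 was also called lower in TAM-like cells (109 and 82 UMIs, log2 ratio -0.73, -1.16 to -0.31), where 1.5% of all genes were, and in monocyte-like cells (17 and 9 UMIs, -1.57, -2.92 to -0.33), where 1.62% were. Icos was called lower in TAM-like cells (56 and 41 UMIs, -0.77, -1.39 to -0.16) and in neutrophil-like cells (24 and 16 UMIs, -0.99, -2.00 to -0.01), where 4.42% of all genes were called lower. The 8 Treg markers summed to 10.8 and 6.05 CPM in TAM-like, 21.4 and 15.3 CPM in monocyte-like, 183 and 89.9 CPM in neutrophil-like and 52.0 and 139 CPM in mature DC-like cells. Their part in these results was not tested.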

How the data were processed

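Droplet libraries (10x Genomics V3.1) were made from sorted CD45+ cells. The deposited matrices hold whole-number UMI counts per gene and barcode for each library. The submitters' processing notes name Cell Ranger 6.1.1 and mm10, while a matrix header names Cell Ranger 4.0.0. Barcodes with under 200 genes (2 and 12) or over 10% mitochondrial UMIs (178 and 265) were removed, as were 806 and 786 likely doublets, called by similarity to sums of 2 barcodes. Cells were integrated and clustered with Seurat 5.3.0 (40 components, 2000 variable features without the 6 genes and without T cell receptor segments; resolution 1 for T and NK cells) and named by marker lists. UMIs were summed per class and library as CPM, with exact Poisson intervals for levels, exact conditional binomial intervals for ratios and Clopper-Pearson intervals for shares at 1000 UMIs per cell. The ratio and the calling rule were run on simulated Poisson counts. That is the model the intervals assume, without spread between cells or mice, so the run cannot show how the rule behaves under such spread. The study's methods use edgeR between clusters; here edgeR 4.0.16 gave TMM factors as an alternative. The 6 genes, gene lists and tests were chosen with earlier results of these data known. Genes named beyond the 6 are the ligands in antigen-presenting classes, list genes past 1.5-fold with an interval that excludes 1 in Treg-like, exhausted-like CD8 or all CD8 cells, and the 3 genes per receptor with the highest r over the classes (at least 50 CPM in 1 of them, with ribosomal, mitochondrial and T cell receptor segment genes kept out). Markers, Tigit, neighbouring genes, Traf2, Vav1 and single Treg markers are named beside the values they bear on and were chosen after their values were seen. UMIs of 1 cell are not independent of its state, so intervals cover counting error only.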

Additional observations from a re-analysis of the deposited data

Results flagged for a closer look

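Tnfrsf4 was past the calling rule in opposite directions in different classes when the MWA plus TIGIT library was compared with the MWA library. Its log2 ratio was 0.61 in gamma-delta-like cells, from 40 and 62 UMIs. It was -0.73 in TAM-like cells, -1.57 in monocyte-like cells and -1.38 in mature DC-like cells, the last of which turned to 0.13 after thinning to 1000 UMIs. In the TAM-like class the level was 3.22 and 1.94 CPM and in the monocyte-like class 4.602 and 1.55 CPM, the latter from 17 and 9 UMIs, against 110 and 168 CPM in gamma-delta-like cells. The 8 Treg markers summed to 10.8 and 6.05 CPM in TAM-like and 21.4 and 15.3 CPM in monocyte-like cells, and their part in the result was not tested. The difference between the classes was not tested, since each group is 1 library.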

How the results depend on the processing

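No paired analysis was possible because each group has 1 library. Of 1366 values recomputed under the alternatives, 1010 moved by less than their counting interval or the set limit, 347 moved further and 9 reversed. In all T and NK cells TMM scaling gave log2 ratios of -0.16 (Tnfrsf4), -0.32 (Tnfrsf9), -0.0003 (Tnfrsf18), 0.0352 (Icos) and -0.0473 (Cd28), and thinning to 1000 UMIs gave -0.12 (Tnfrsf4), -0.11 (Cd28) and 0.13 (Cd27). In Treg-like cells Tnfrsf4 was 0.0345 with TMM and Cd27 0.46 when cells were taken by marker UMIs. Pairs called higher numbered 6 with the 6 genes among the variable features and 0 after thinning, against 3. Pairs called lower, against 1, numbered 3 with TMM, 4 in cells of at most 5000 UMIs, 2 with doublets kept, 2 at resolution 0.5 and 3 without integration. The share of Treg-like cells with 3 or more receptors was 88.7% and 92.2% without thinning and 89.6% and 91.5% at 2000 UMIs, among the cells with at least 2000. Past 1.5-fold alone, without an interval, 909 genes against 435 were counted in all T and NK cells and 1144 against 394 in Treg-like cells. Reversed values were Icos in neutrophil-like cells (log2 ratio 1.38 with doublets kept, 0.74 with the 6 genes among the variable features, 0.72 without integration), Tnfrsf4 in mature DC-like cells (0.13 after thinning), and 2 ratios between classes. In cells of at most 5000 UMIs Cd28 in Treg-like over exhausted-like cells was 0.913 in the MWA library. Tnfrsf9 in CD4-like over all CD8 cells was 1.13 and 1.08 in cells of at most 5000 UMIs and 1.15 and 1.53 by marker UMIs. The cause was not tested. The interferon-induced-like CD8 class did not form with doublets kept or with the 6 genes among the variable features. Small classes and DC classes rest on few UMIs, and with 1 library a group the spread between mice is unknown.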
